A study of Homo sapiens with 6 samples.

Results

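Matrix metalloproteinases (MMPs) are zinc-dependent endopeptidases that cut collagens and other extracellular matrix proteins, growth factor precursors and cell surface proteins. The tissue inhibitors of metalloproteinases (TIMPs) bind their active site and block them. MMP1, MMP2, MMP7 and MMP10 are made as secreted proenzymes, while MMP14, MMP15 and MMP24 are membrane-type enzymes held at the cell surface. In the kidney this family is known for its part in turnover of the tubular basement membrane, and MMP7 is known as a gene induced in injured tubules.

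The 10 genes described here are the 7 MMP genes MMP1, MMP2, MMP7, MMP10, MMP14, MMP15 and MMP24 and the 3 inhibitor genes TIMP1, TIMP2 and TIMP3, out of 38126 Ensembl gene IDs measured. All 10 were found by symbol, and 8 of them had enough fragments to test. MMP10 and TIMP3 did not. RNA was sequenced from HK-2, an immortalised human proximal tubular epithelial line, in 3 libraries of cells exposed to phosphoramidon for 24 h and 3 libraries of untreated cells. Phosphoramidon is a bacterial metabolite that blocks zinc metallopeptidases, endothelin-converting enzyme and neprilysin among them. Both groups shared a serum-free keratinocyte medium supplemented with EGF and bovine pituitary extract and were near confluence at the start. The labels give no dose and name no vehicle. CSE, an abbreviation left unexplained, stands in the titles of the untreated libraries, which are taken as untreated from their treatment label. The labels do not say whether replicates are separate cultures. The p-values therefore reflect only how much these libraries differ, and that spread may be technical.

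Depth was 18690093 to 24919564 assigned fragments in phosphoramidon libraries and 23493823 to 24815374 in untreated libraries. Of 14 proximal tubule markers, PAX8 was well above 1 FPKM (fragments assigned to a gene, scaled by its length and by the library's total) and SLC22A6 and SLC22A8 were listed at 0 in every library. Transporters and brush border genes of the tubule (LRP2, CUBN, AQP1, SLC34A1, ANPEP) lay below 0.3 FPKM. Of 5 epithelial markers, EPCAM, KRT8, KRT18 and KRT19 were well expressed, the 3 keratins being lower with phosphoramidon. CDH1 (E-cadherin) was low, at a mean of 0.501 FPKM with phosphoramidon and 0.391 FPKM in untreated cells. It was not called (limma adjusted p = 0.37). Of 7 fibroblast markers, 4 could be tested (COL1A1, LUM, DCN and PDGFRB), and all 4 were lower with phosphoramidon. Over all tested genes, 17.9% were called lower by limma at an adjusted p below 0.05. The 7 fibroblast markers summed to 23.5 to 24.9 FPKM in phosphoramidon libraries and 60.9 to 65.7 FPKM in untreated libraries. That sum came almost wholly from LUM and COL1A1, while COL3A1 was listed at 0 throughout and COL1A2 and PDGFRA stayed below 0.02 FPKM. Endothelial markers (4 matched, summing to at most 0.153 FPKM) and leukocyte markers (4 matched, at most 0.874 FPKM) were near 0. The part of the fibroblast markers in the results below was not tested. In bulk RNA, fewer cells of a kind and less RNA per cell cannot be told apart.

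The comparison asks how mRNA of these enzymes and inhibitors differs after 24 h of phosphoramidon. The secreted collagenase MMP1 and the matrilysin MMP7 fell most, by 2.02 and 1.27 on the log2 scale. MMP14 and TIMP1 fell by 0.37 each. TIMP2 was slightly lower and MMP15 slightly higher, both near the threshold, and MMP2 and MMP24 did not pass the test. Of the 8 tested members, 1 was higher and 5 lower by limma at an adjusted p below 0.05, where 33.6% of all 16176 tested genes were called (15.6% higher and 17.9% lower). On FPKM as deposited, before the scaling between libraries used in the fit, the groups did not overlap in 6 of the 8. The share of all tested genes was 49.7%. Of the 6, 5 were lower and 1 higher with phosphoramidon, where 18.4% of tested genes were lower without overlap and 31.3% higher. MMP1 and MMP7 also passed limma's test against a 1.5-fold change (adjusted p = 6.1e-05 and 2.6e-04), which 0.804% of genes passed and 0.655% passed as lower genes. The members were chosen with results of these data known, so these counts describe the family and do not set it apart.

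**Figure D1:**
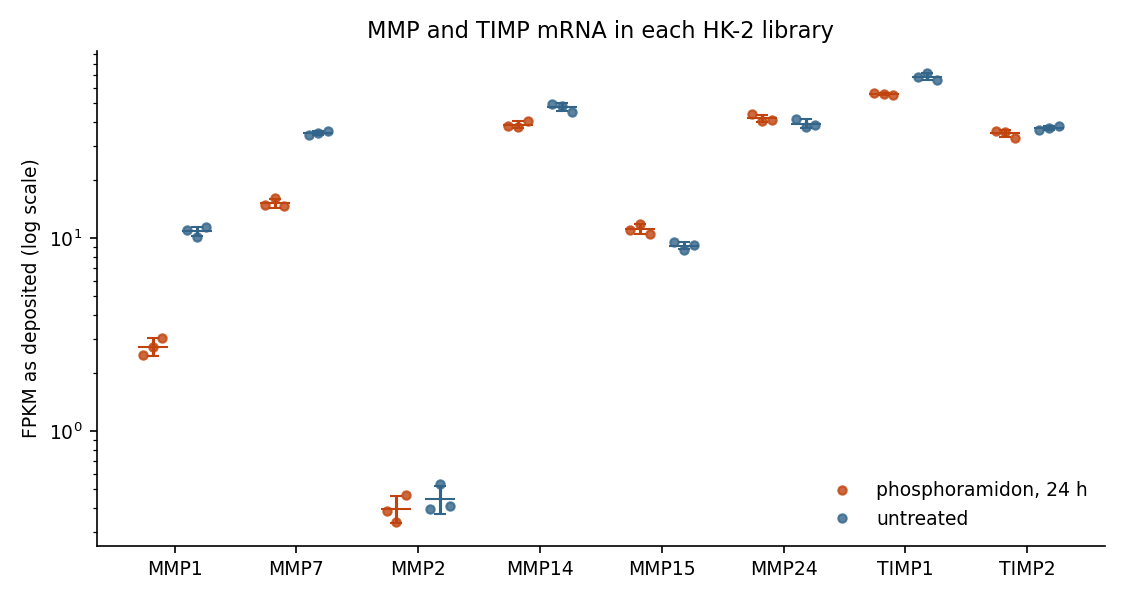
FPKM as deposited (log axis) of the 8 tested MMP and TIMP genes, with 3 phosphoramidon libraries left of 3 untreated libraries for each gene. Points are libraries, and bars are the mean and SD. MMP1 and MMP7 show the widest gaps, while MMP2 and MMP24 overlap between the groups.

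MMP1, interstitial collagenase, cuts fibrillar collagens. Its gene (ENSG00000196611, chromosome 11, 102789920 to 102798160, minus strand, GRCh38) stood at 2.47, 2.73 and 3.03 FPKM in phosphoramidon replicates 1 to 3, against 11.0, 10.2 and 11.4 FPKM in untreated replicates 1 to 3. Every phosphoramidon library lay below every untreated library, with a wide gap between them. The means were 2.74 ± 0.282 FPKM with phosphoramidon and 10.9 ± 0.624 FPKM in untreated cells (SD, n = 3 each). The log2 fold change was -2.02 ± 0.08 (SE), with a 95% interval from -2.20 to -1.84, which corresponds to a 4.06-fold lower level (limma adjusted p = 3.0e-06). It was the 12th lowest fold change of the 16176 genes tested. These values rest on 91 to 134 fragments per phosphoramidon library and 488 to 558 per untreated library. Of its exonic bases, 150 also belong to the antisense pseudogene WTAPP1, which was below 0.03 FPKM in the libraries.

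MMP7, matrilysin, is the small MMP that lacks the hemopexin domain of most relatives. Its gene (ENSG00000137673, chromosome 11, 102520508 to 102530753, minus strand) had 14.8, 16.2 and 14.7 FPKM in phosphoramidon libraries, against 34.1, 35.0 and 36.0 FPKM in untreated libraries. The groups were far apart, and replicates within each differed little. The means were 15.2 ± 0.826 FPKM with phosphoramidon and 35.0 ± 0.915 FPKM in untreated cells (SD, n = 3 each), or -1.27 ± 0.05 (SE) as a log2 fold change (limma adjusted p = 2.9e-06). This was a 2.41-fold lower level and the 89th lowest fold change. Both secreted enzymes fell, but by unequal amounts. The ratio of MMP7 to MMP1 within a library was 5.99, 5.93 and 4.85 in phosphoramidon libraries and 3.10, 3.44 and 3.15 in untreated libraries, so these ratios did not overlap.

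MMP2, gelatinase A, cuts denatured collagen and type IV collagen and is known to be activated at the cell surface by MMP14 with TIMP2. Its gene (ENSG00000087245, chromosome 16, 55389700 to 55506691) was low, at 0.387, 0.341 and 0.467 FPKM in phosphoramidon libraries and 0.398, 0.533 and 0.411 FPKM in untreated libraries. The groups overlapped. With 34 to 43 fragments per phosphoramidon library and 44 to 61 per untreated library, the log2 fold change was -0.19 ± 0.17 (SE), with a 95% interval from -0.57 to 0.19 (limma adjusted p = 0.41).

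MMP10, stromelysin 2, was at the limit of detection. Its gene (ENSG00000166670, chromosome 11, 102770503 to 102780628) drew 0, 4 and 1 fragments in phosphoramidon libraries and 2, 5 and 7 in untreated libraries, or at most 0.0913 FPKM with phosphoramidon and 0.160 FPKM in untreated cells. A count of 3 fragments is worth 0.0685 to 0.0913 FPKM for this gene, depending on the library. It was not tested, and no fold is given.

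The chromosome 11 members lie in a cluster of MMP genes that share one stretch of the long arm. MMP7 and MMP1 start 267 kb apart, with MMP20, MMP27, MMP8 and MMP10 between them and MMP3, MMP12 and MMP13 beyond MMP1. Of the 9 MMP genes in the cluster, 7 had a group mean below 1 FPKM in both groups, and of those MMP13, collagenase 3, was the only one that could be tested. It had 0.718, 0.907 and 0.523 FPKM in phosphoramidon libraries and 0.872, 0.857 and 0.953 FPKM in untreated libraries (log2 fold change -0.37 ± 0.18 (SE), limma adjusted p = 0.16). Within 500 kb of the cluster lie 7 other protein-coding genes, chosen by position with the values of the MMP genes known. The Hippo pathway coactivator YAP1 was lower (log2 fold change -0.19) and BIRC3, an inhibitor of apoptosis, higher (0.48). BIRC2 (0.05), TMEM123 (0.04), CFAP300 (-0.08), DCUN1D5 (-0.24) and DYNC2H1 (0.02) did not pass. Thus 1 of the 7 was called lower and 1 higher, where 17.9% of all tested genes were lower and 15.6% higher. TMEM123, the nearest expressed neighbour beyond MMP7, averaged 82.7 FPKM with phosphoramidon and 76.7 FPKM in untreated cells.

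**Figure D2:**
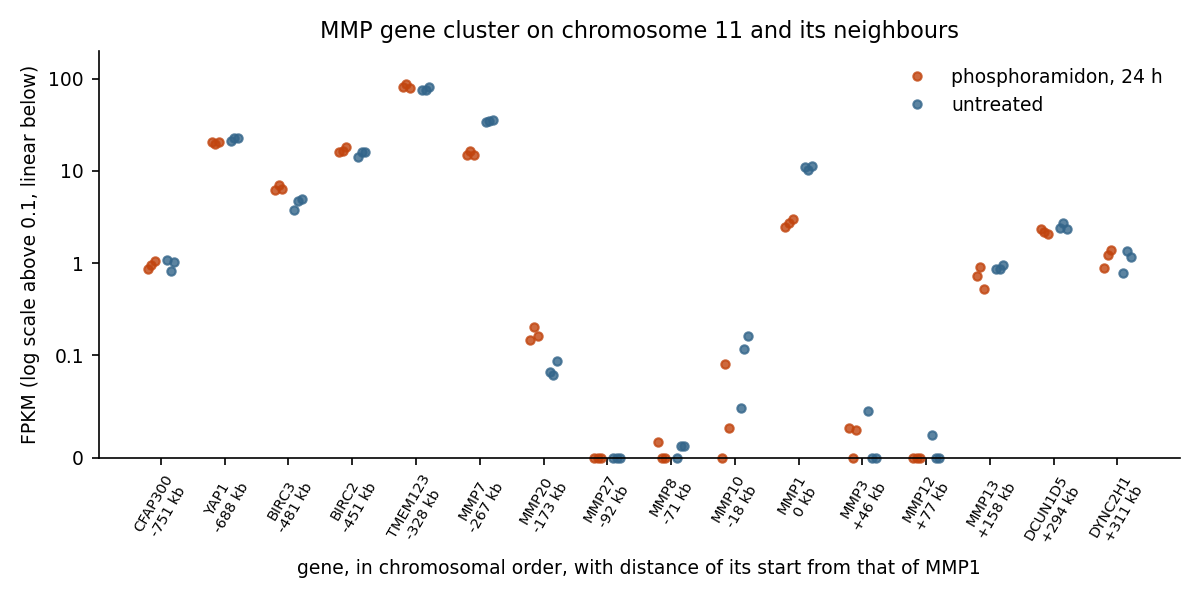
FPKM of the 9 MMP genes of the chromosome 11 cluster and 7 neighbours, in chromosomal order with the distance in kb from the start of MMP1; phosphoramidon libraries stand left of untreated libraries, and the axis is logarithmic above 0.1 and linear below. MMP7 and MMP1 stand well above the MMP genes between them, and both are lower in all 3 phosphoramidon libraries.

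To show the sequence context of members that moved and members that stayed low, promoter windows were taken from RefSeq (GRCh38.p14), which matched 7 of the 10 members. MMP1, MMP2 and TIMP2 had no window, so MMP1, the member that fell most, is not covered. Each window runs from 250 bases before the annotated transcript start to 50 after it, and 4 are printed below as the 250 bases before the start, 5′ to 3′ on the gene's own strand. MMP7 fell and MMP10 stayed at the limit of detection, both from the chromosome 11 cluster. MMP14 fell and MMP15 was slightly higher, and both encode membrane-type enzymes. Capitals mark matches on either strand to TGANTCA, the site of AP-1 (FOS and JUN proteins), to TATAAA, the TATA box, and to GGAA, the core recognised by ETS factors. The spans are chr11:102530748-102530997 (minus strand) for MMP7, chr11:102780629-102780878 (minus strand) for MMP10, chr14:22836335-22836584 (plus strand) for MMP14 and chr16:58025504-58025753 (plus strand) for MMP15.
MMP7: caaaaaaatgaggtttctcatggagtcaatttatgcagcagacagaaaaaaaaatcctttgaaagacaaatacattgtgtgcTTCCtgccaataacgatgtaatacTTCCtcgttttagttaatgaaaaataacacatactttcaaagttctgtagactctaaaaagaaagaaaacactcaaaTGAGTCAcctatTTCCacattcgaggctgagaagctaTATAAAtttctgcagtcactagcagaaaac
MMP10: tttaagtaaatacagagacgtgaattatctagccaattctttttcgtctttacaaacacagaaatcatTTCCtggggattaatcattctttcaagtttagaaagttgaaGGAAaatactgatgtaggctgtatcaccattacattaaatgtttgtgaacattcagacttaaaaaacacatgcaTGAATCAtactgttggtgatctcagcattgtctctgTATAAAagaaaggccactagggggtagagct
MMP14: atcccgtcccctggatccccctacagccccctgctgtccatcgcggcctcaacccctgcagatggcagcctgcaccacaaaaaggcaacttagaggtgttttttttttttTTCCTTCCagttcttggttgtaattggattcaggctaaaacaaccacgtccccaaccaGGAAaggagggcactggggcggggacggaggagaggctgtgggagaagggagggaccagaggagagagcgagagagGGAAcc
MMP15: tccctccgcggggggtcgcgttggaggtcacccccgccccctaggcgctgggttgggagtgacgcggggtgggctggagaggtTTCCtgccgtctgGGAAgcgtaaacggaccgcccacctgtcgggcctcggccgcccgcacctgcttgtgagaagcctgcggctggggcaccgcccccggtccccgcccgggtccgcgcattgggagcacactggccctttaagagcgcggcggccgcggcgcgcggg

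The MMP7 and MMP10 windows hold the AP-1 and TATA letters at nearly the same places, although the levels of these genes were far apart in both groups. Each holds 1 match to TGANTCA, starting 67 bases before the transcript start in both, and 1 TATAAA, starting 30 bases before it in MMP7 and 31 in MMP10. In MMP7 the AP-1 match reads tgagtca and in MMP10 tgaatca. Neither motif was found in the windows of MMP14, MMP15, MMP24, TIMP1 or TIMP3. Over all 27305 windows, 7.76% held TGANTCA and 12.0% held TATAAA, while GGAA occurred in 95.5% and so tells little. CTTTGNN, the core recognised by TCF and LEF factors, was found 2 times in MMP7, 1 time in MMP10 and in none of the other 5 windows, against 47.3% of all windows. None of these matches overlapped another motif searched. The windows also differ in base composition, with 33.6% G or C upstream of MMP7 and 34.4% upstream of MMP10, against 56.8% for MMP14, 74.8% for MMP15 and 77.6% for MMP24. A match describes the letters of a window and does not show that a factor binds there.

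Among the membrane-type enzymes, MMP14 (MT1-MMP) is known as a pericellular collagenase and as the activator of MMP2. Its gene (ENSG00000157227, chromosome 14, 22836557 to 22849027) had 38.2, 37.7 and 40.6 FPKM in phosphoramidon libraries, against 49.8, 48.2 and 45.1 FPKM in untreated libraries. All phosphoramidon libraries lay below all untreated libraries, with the closest pair 4 to 5 FPKM apart. The means were 38.8 ± 1.55 FPKM with phosphoramidon and 47.7 ± 2.35 FPKM in untreated cells (SD, n = 3 each). The log2 fold change of -0.37 ± 0.05 (SE) is a 1.29-fold lower level (limma adjusted p = 7.1e-04).

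MMP15 (MT2-MMP) is another membrane-type enzyme known to activate MMP2. Its gene (ENSG00000102996, chromosome 16, 58025566 to 58046901) had 11.1, 11.9 and 10.6 FPKM in phosphoramidon libraries, against 9.51, 8.74 and 9.26 FPKM in untreated libraries. In FPKM as deposited, every phosphoramidon library was above every untreated one, by a small margin. The log2 fold change was 0.21 ± 0.06 (SE), with a 95% interval from 0.07 to 0.36 (limma adjusted p = 0.032). The call was lost without phosphoramidon replicate 1 (limma adjusted p = 0.071) or 2 (0.11), and without untreated replicate 2 (0.10) or 3 (0.064).

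MMP24 (MT5-MMP) is best known from the nervous system. Its gene (ENSG00000125966, chromosome 20, 35226654 to 35277000) was among the highest of the family, at 43.9, 40.7 and 41.1 FPKM in phosphoramidon libraries and 41.7, 37.6 and 38.4 FPKM in untreated libraries. The groups overlapped, and the log2 fold change of 0.03 ± 0.06 (SE) had a 95% interval from -0.11 to 0.16 (limma adjusted p = 0.77). On GENCODE 29, 799 exonic bases, 18.1% of the gene's exons, are shared with MMP24OS on the opposite strand, and the use of strand is not given in the sources used here. MMP24OS had 1.33, 1.16 and 1.15 FPKM in phosphoramidon libraries, against 1.95, 2.30 and 2.02 FPKM in untreated libraries. It fell by 0.81 on the log2 scale (limma adjusted p = 7.2e-04), so the overlapping pair did not move alike. Reads in the shared bases cannot be told apart without strand.

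TIMP1, an inhibitor of most secreted MMPs that also acts as a growth factor, was the highest member in both groups. Its gene (ENSG00000102265, chromosome X, 47582313 to 47586789) had 56.4, 56.1 and 55.1 FPKM in phosphoramidon libraries, against 68.3, 71.5 and 65.9 FPKM in untreated libraries. The groups were well apart, and the phosphoramidon libraries were nearly equal. The means were 55.9 ± 0.679 FPKM with phosphoramidon and 68.6 ± 2.84 FPKM in untreated cells (SD, n = 3 each), and the fold change was -0.37 ± 0.04 on the log2 scale (SE, limma adjusted p = 2.9e-04).

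TIMP2 inhibits MMPs and also bridges MMP2 to MMP14. Its gene (ENSG00000035862, chromosome 17, 78852977 to 78925387) had 35.9, 35.7 and 33.1 FPKM in phosphoramidon libraries, against 36.5, 37.0 and 38.0 FPKM in untreated libraries. The groups stood side by side with almost no gap. The log2 fold change was -0.16 ± 0.05 (SE), with a 95% interval from -0.27 to -0.05 (limma adjusted p = 0.031). The call was lost without phosphoramidon replicate 2 (limma adjusted p = 0.059) or 3 (0.082), without untreated replicate 1 (0.060) or 3 (0.079), and on the values as deposited (log2 fold change -0.09, adjusted p = 0.12).

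TIMP3, the inhibitor that binds the extracellular matrix, was close to undetected. Its gene (ENSG00000100234, chromosome 22, 32801701 to 32863043) had 0 fragments in all 3 phosphoramidon libraries and in untreated replicates 1 and 2, and 2 fragments in untreated replicate 3. A count of 0 allows up to 3 fragments, which is 0.0262 to 0.0349 FPKM for this gene. It was not tested.

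**Figure D3:**
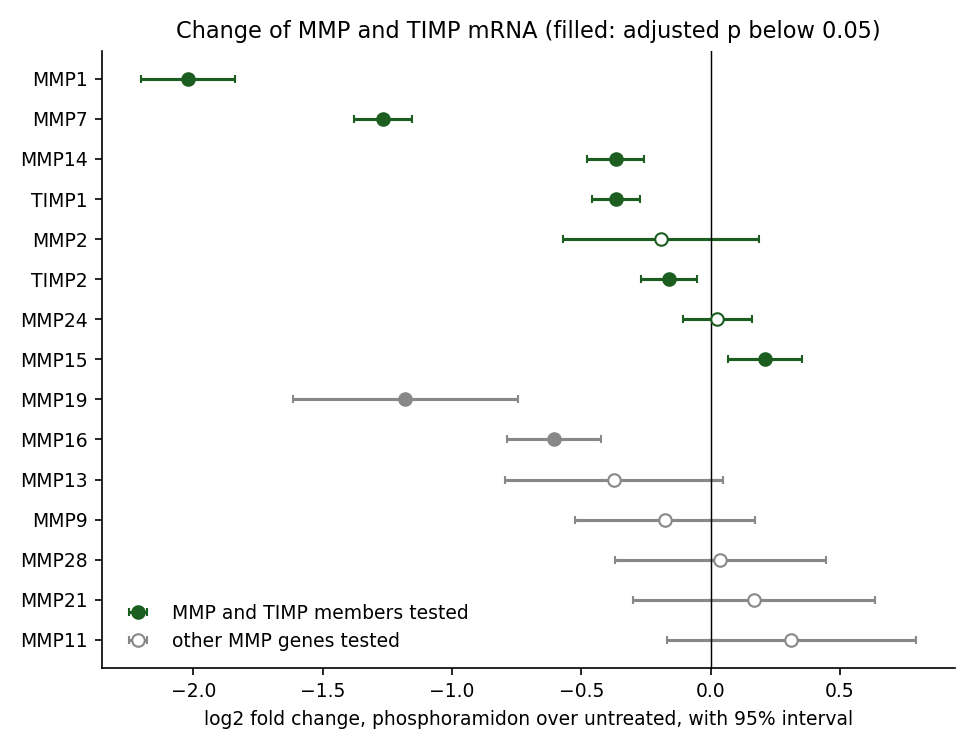
Log2 fold change of phosphoramidon over untreated with its 95% interval for the 8 tested members (green, above) and the 7 other MMP genes that could be tested (grey, below), filled where the adjusted p was below 0.05. MMP1 and MMP7 lie far left of the other members, and MMP15 is the called member on the right.

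The order of the levels differed between the groups at 2 places, where neighbours swapped, and the other 6 members held their rank. With phosphoramidon the order was TIMP1, MMP24, MMP14, TIMP2, MMP7, MMP15, MMP1, MMP2, MMP10 and TIMP3. In untreated cells it was TIMP1, MMP14, MMP24, TIMP2, MMP7, MMP1, MMP15, MMP2, MMP10 and TIMP3. Neighbours in the order had ranges that overlapped for MMP10 and TIMP3 with phosphoramidon and for MMP24 and TIMP2 in untreated cells, and for no other neighbouring pair. MMP1 moved below MMP15: the ratio of MMP15 to MMP1 was 4.48, 4.35 and 3.48 in phosphoramidon libraries and 0.863, 0.858 and 0.811 in untreated libraries. MMP24 moved above MMP14, with ratios of 1.15, 1.08 and 1.01 in phosphoramidon libraries and 0.838, 0.780 and 0.851 in untreated libraries. Compared with all tested genes, the mean of MMP1 exceeded that of 44.9% of genes with phosphoramidon and of 78.0% in untreated cells, and that of MMP7 exceeded 83.8% with phosphoramidon and 94.0% in untreated cells.

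Summed over members, the secreted enzymes MMP1, MMP2, MMP7 and MMP10 reached 17.7, 19.4 and 18.2 FPKM in phosphoramidon libraries, against 45.6, 45.9 and 47.9 FPKM in untreated libraries. The membrane-type enzymes MMP14, MMP15 and MMP24 summed to 93.2, 90.3 and 92.2 FPKM with phosphoramidon and 101, 94.5 and 92.8 FPKM in untreated cells. On FPKM as deposited, the secreted sum was thus 0.396 times its untreated level and the membrane-type sum 0.957 times. The membrane-type sums overlapped between the groups on that scale. The factors used in the fit (1.01 to 1.04 with phosphoramidon, 0.964 to 0.990 in untreated libraries) were not applied to these sums. Dividing by them would lower both of these ratios. Within the MMP members, MMP7 supplied 13.8 ± 0.826% of the summed FPKM with phosphoramidon and 24.6 ± 1.17% in untreated cells (SD, n = 3 each). MMP24 supplied 38.0 ± 1.43% with phosphoramidon and 27.5 ± 0.854% in untreated cells. The sums were made over members chosen with results known and were not tested.

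Ratios of enzyme to inhibitor mRNA were taken within each library, where scaling between libraries cancels. The ratio of MMP1 to TIMP1 was 0.0438, 0.0486 and 0.0551 in phosphoramidon libraries, against 0.161, 0.142 and 0.173 in untreated libraries. For MMP7 to TIMP1 it was 0.263, 0.288 and 0.267 with phosphoramidon and 0.499, 0.490 and 0.546 in untreated cells. Both ratios were lower in all phosphoramidon libraries, although TIMP1 fell as well. For MMP14 to TIMP2 the ratios were 1.06, 1.06 and 1.22 with phosphoramidon and 1.36, 1.30 and 1.19 in untreated cells, and these overlapped. All 7 MMPs over all 3 TIMPs gave 1.20, 1.19 and 1.25 with phosphoramidon and 1.40, 1.29 and 1.35 in untreated cells, close but not overlapping. These are ratios of mRNA, and protein and activity were not measured.

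**Figure D4:**
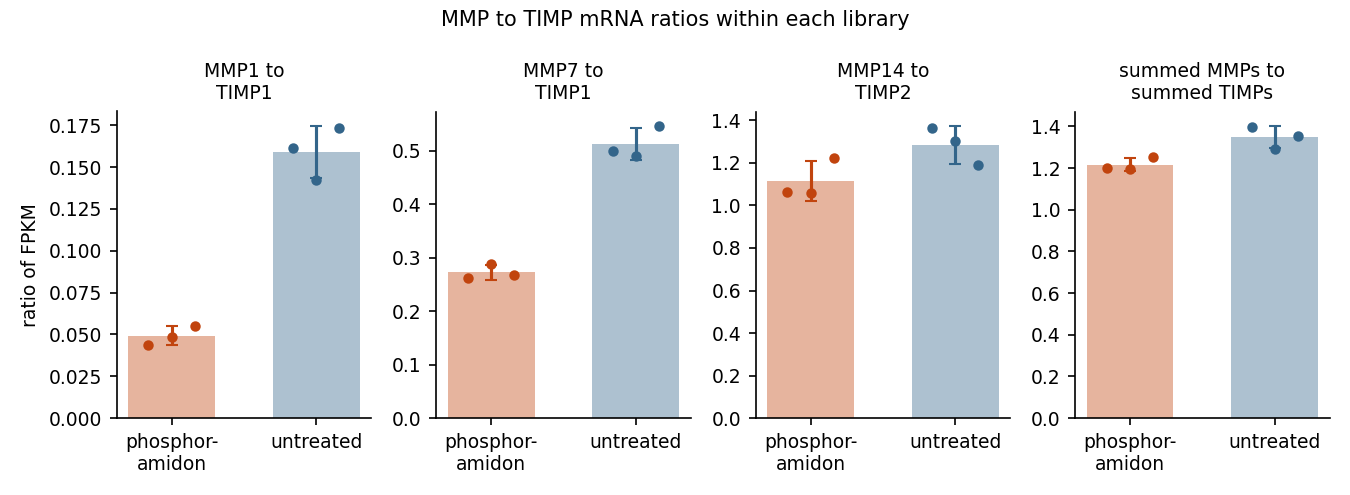
Ratio of FPKM between MMP and TIMP genes within each library, with phosphoramidon left of untreated; points are libraries, bars the mean and error bars the SD (n = 3 each), and each axis starts at 0. The MMP1 to TIMP1 and MMP7 to TIMP1 ratios are lower in every phosphoramidon library, while the MMP14 to TIMP2 ratios overlap.

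The rest of the family, 16 further MMP and TIMP genes found in the files, held 7 that could be tested, of which 0 were higher and 2 lower, against 15.6% higher and 17.9% lower over all tested genes. The membrane-type MMP16 (MT3-MMP) had 1.90, 2.03 and 2.19 FPKM in phosphoramidon libraries, against 2.84, 3.03 and 3.15 FPKM in untreated libraries (log2 fold change -0.61 ± 0.08 (SE), limma adjusted p = 7.4e-04). MMP19 had 0.263, 0.172 and 0.153 FPKM in phosphoramidon libraries, against 0.547, 0.467 and 0.612 FPKM in untreated libraries (log2 fold change -1.18 ± 0.19 (SE), limma adjusted p = 0.0020). In both genes the groups did not overlap. Of the exonic bases of MMP19, 17.4% are shared with TMEM198B on the opposite strand. The gelatinase MMP9, near 0.9 FPKM, and MMP11, MMP13, MMP21 and MMP28 did not pass, with log2 fold changes from -0.37 for MMP13 to 0.31 for MMP11. TIMP4 drew fragments in 2 phosphoramidon libraries only, at most 0.101 FPKM.

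Proteases and inhibitors that act around the MMPs were examined as a list of 24, of which 16 could be tested, with 2 higher, 7 lower and a median log2 fold change of -0.16 (0.01 over all tested genes). PLAU, the urokinase that activates plasminogen, had 22.8 ± 0.937 FPKM with phosphoramidon and 43.0 ± 1.57 FPKM in untreated cells (SD, n = 3 each), and TFPI2, a Kunitz-type inhibitor, fell to 44.5 ± 0.472 FPKM, against 77.2 ± 2.81 FPKM in untreated cells. The protease nexin SERPINE2 (-0.36) and the membrane serine protease HPN (-1.11) fell too, by the log2 fold changes given. The members that rose were RECK, a membrane-anchored MMP inhibitor (0.40), and PLAT, tissue plasminogen activator (0.31), both named after their values were seen. Over all tested genes 33.6% were called, the background for these counts. PLG, plasminogen itself, was listed at 0 in every library. FURIN, which cleaves membrane-type proMMPs, had a log2 fold change of -0.17 (limma adjusted p = 0.057), and BSG, known as the MMP inducer EMMPRIN, of -0.03 (adjusted p = 0.71).

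Of 25 transcription factors known to act on MMP promoters, all could be tested, with 4 higher, 9 lower and a median log2 fold change of -0.12. Over all tested genes 15.6% were higher and 17.9% lower, so the share of higher ones was near the background. FOSL2, an AP-1 subunit, fell to 81.4 ± 1.88 FPKM with phosphoramidon, against 102 ± 3.68 FPKM in untreated cells. RUNX2 (log2 fold change -0.54) and the ETS factor ETV1 (-0.62) fell as well. The AP-1 subunits FOS (-0.50) and FOSB (-1.14), named after their values were seen, were lower, while JUN (-0.14, limma adjusted p = 0.056), JUNB (-0.12), JUND (-0.10) and FOSL1 (-0.13) did not pass. RUNX1 (0.35) and STAT3 (0.24) rose, and so did NFKB1 (0.18), which was named after its value was seen. The fourth gene called higher, LEF1, passed the filter on low values only through the phosphoramidon libraries, so its call is no support. It was low, at 0.189 ± 0.0104 FPKM with phosphoramidon and 0.0671 ± 0.0426 FPKM in untreated cells. No relation between these genes and the MMP genes was tested.

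Among 20 surface partners and substrates of MMPs, 19 could be tested, with 2 higher, 7 lower and a median log2 fold change of -0.07, where 15.6% of all tested genes were higher and 17.9% lower. The caveolar protein CAV1 (log2 fold change -0.73), the endocytic receptor LRP1 (-0.80), the integrin subunit ITGAV (-0.26) and the tetraspanin CD63 (-0.32), a TIMP1 partner, fell. HBEGF, an EGF receptor ligand shed from the membrane by metalloproteinases, rose to 24.7 ± 0.144 FPKM with phosphoramidon, against 14.2 ± 0.131 FPKM in untreated cells. LTBP1 (0.56), named after its value was seen, also rose. CD44, the docking partner of several MMPs, had a log2 fold change of -0.02 (limma adjusted p = 0.83).

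Genes most like 3 members were sought over the 6 libraries among 12071 genes, by the Euclidean distance between log2 values set relative to their untreated mean. Nearest to MMP1 were the integrin subunit ITGB6 (distance 0.38), the activin subunit INHBA (0.41) and the endothelin precursor EDN1 (0.43). Their log2 fold changes were -1.89, -1.87 and -1.80. Nearest to MMP7 were the matricellular protein gene CCN3 (0.15), ZBED10P (0.18) and C1orf116 (0.19), with log2 fold changes of -1.20, -1.23 and -1.26. Nearest to MMP15 were RAB8B (0.06), SLC41A1 (0.06) and STYX (0.06), with log2 fold changes of 0.21, 0.20 and 0.19. A short distance means a similar fold change and similar scatter over the same 6 libraries, which also share depth and scaling.

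**Figure D5:**
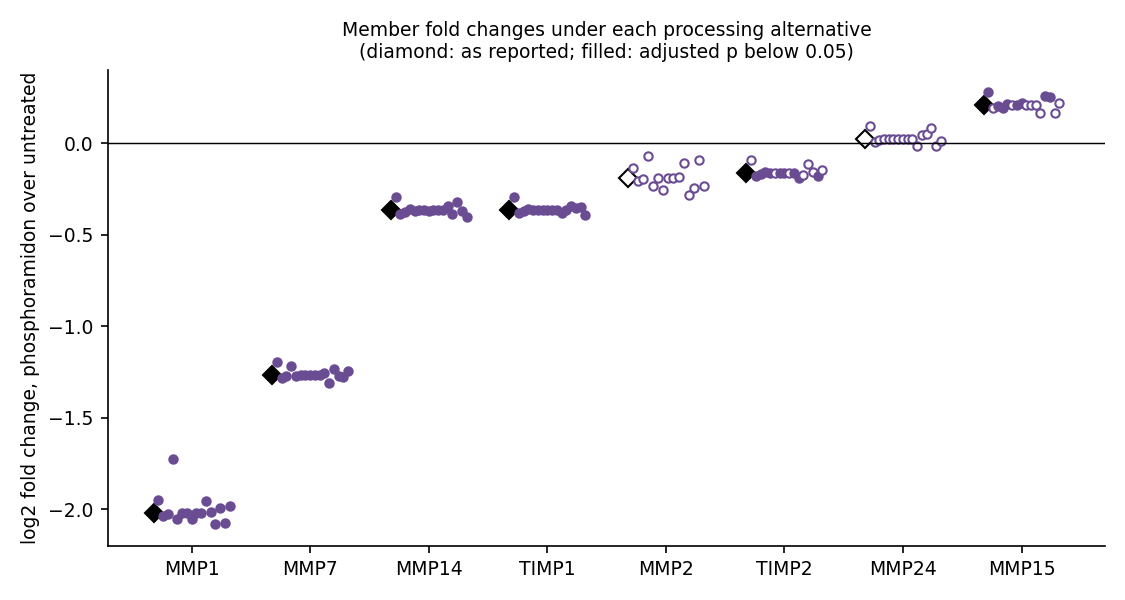
Log2 fold change (phosphoramidon over untreated) of the 8 tested members as reported (black diamonds) and under each processing alternative (purple circles), filled where the adjusted p was below 0.05. MMP1, MMP7, MMP14 and TIMP1 are filled throughout, while MMP15 and TIMP2 lose their call under several alternatives.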

How the data were processed

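Per the submitters' processing notes, the aligner HISAT2 2.1.0, the counter featureCounts 1.6.0, the trimmer Trimmomatic 0.38, DESeq2 1.22.1, CASAVA, FastQC and MultiQC are named, with the build GRCh38 and without roles or order. Annotation, strand use and read pairing: not given in the sources used here. The values the authors deposited are FPKM per gene, 1 file per library, as found from the values. Multiplied by the merged exon length of GENCODE 29, they are whole numbers of a library's smallest step (within 0.05 fragments) for 79.1% of the 34623 genes above 0. For most others a length was searched, so their fragments are less certain and could be off by a whole factor, MMP1, MMP2, MMP7, MMP14, MMP15, MMP24 and TIMP1 among them. Floors (3 fragments) cover counting error only, and the 95% intervals of fold changes come from limma and the spread between libraries.

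FPKM were divided by TMM factors computed from the recovered fragments of the tested genes (trimming 30% on M and 5% on A), 1.01 to 1.04 in phosphoramidon and 0.964 to 0.990 in untreated libraries. limma 3.58.1 (R 4.3.3) was run on log2(FPKM + 0.1) with a trended, robust prior and the group alone, on 16176 genes with at least 10 fragments in at least 3 libraries, with Benjamini-Hochberg adjustment at 0.05. Fold changes are on that scale and understate the change of low genes. The procedure was also run on simulated data with a fixed scatter and far fewer changed genes than were called here. The outcome of that run is not used as support for any result. Since the deposited files hold FPKM, limma voom on the recovered fragments was run as an alternative only. Protein sequences were not used here. Symbols matched 37892 IDs. Members and lists were chosen with earlier results of these data known. All 10 members are named. From each other list the text names called genes with the lowest p (up to 5), from the rest of the MMP family all tested genes, and 3 nearest genes for MMP1, MMP7 and MMP15 among genes averaging at least 50 fragments. Other genes named were chosen after their values were seen, and some genes the rule covers are not reported here.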

Additional observations from a re-analysis of the deposited data

How the results depend on the processing

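MMP1, MMP7, MMP14 and TIMP1 kept their direction and their call under all 16 alternatives, with log2 fold changes from -2.08 to -1.72 (MMP1), -1.31 to -1.20 (MMP7), -0.40 to -0.30 (MMP14) and -0.39 to -0.29 (TIMP1). MMP15 lost its call in 8 of 16 (0.17 to 0.28) and TIMP2 in 7 of 16 (-0.19 to -0.09). Beyond the libraries named with them, both were lost without a filter (limma adjusted p = 0.11 and 0.092) and without trend and robust prior (0.077 and 0.093). MMP15 was also lost with TMM factors from all genes (0.0502), an alternative chosen after seeing the data. The factors from the tested genes, under which MMP15 was called, were kept as the main setting after both outcomes were seen. MMP24, never called, changed sign without phosphoramidon replicate 1 (-0.016) or untreated replicate 2 (-0.017), within -0.017 to 0.085 over the libraries left out. MMP2 could not be tested under the stricter filter. The cause of these losses was not tested.

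Called members numbered 4 to 6 (4 to 5 leaving out 1 library). Over all genes 2531 were called higher and 2901 lower, and on values as deposited 3647 and 2168, while the median of all genes stood at 0.07 in place of 0.01. Without a filter 3516 genes were called, 1542 of them higher, and 8 of the MMP gene regulators in place of 13. Genes past 1.5-fold numbered 130 (24 higher, 106 lower), against 68 (11 and 57) with a pseudocount of 1, 63 (12 and 51) without a filter and 273 (69 and 204) with voom. Higher ones numbered 38 as deposited and 44 under the stricter filter. Leaving out 1 library gave 84 to 138 (13 to 23 higher, 68 to 115 lower), with the lowest totals without untreated replicate 2 (84) or 1 (86) and 13 higher without phosphoramidon replicate 2.

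Same-numbered replicates had correlations of deviations of 0.11, -0.0195 and -0.00965. With 3 libraries per group, these values cannot decide whether same-numbered replicates share a culture or run. With the replicate number as a block, 2564 genes were higher and 2891 lower, and MMP15 passed no longer (limma adjusted p = 0.051). MMP10 and TIMP3 drew too few fragments to be tested.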
